A study of Mus musculus with 2 samples.

Results

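Schwann cells are the glia of peripheral nerves. The 8 genes described here, Mbp, Pmp22, Prx, Mag, Sox10, S100b, Egr2 and Cnp, were chosen by name as genes that these cells and their myelin are known for, and all 8 were among the 30649 gene names of the deposited table, with 25 of its 55350 transcript rows. The data are mRNA-seq of interscapular brown adipose tissue (BAT), the heat-producing fat between the shoulder blades, from Taf7l KO mice and from WT mice, both on a C57BL/6 background by the labels (C57BL/6J in the study's methods). Taf7l KO mice carry a knockout of Taf7l, which encodes a paralog of a subunit of the general transcription factor TFIID. The study's methods describe trimming of the fat at dissection. For either genotype, RNA of 6 mice went as a pool into 1 library, so the spread between mice is unknown and neither tests nor SDs can be given. Mice were 1 month old by most labels, although another label of the Taf7l KO pool says 3 months.

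A myelinating Schwann cell wraps an axon many times over and compacts the wraps into myelin, and a non-myelinating one holds several thin axons in troughs of its surface. SOX10 keeps the lineage and, together with EGR2 (Krox20), switches on the genes of myelin. BAT is driven by sympathetic nerves, whose fibers are mostly unmyelinated, and the nerve branches that enter the fat pad carry Schwann cells with them. In bulk tissue, fewer cells of a type and less RNA per cell cannot be told apart.

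Some properties of these genes can be read from sequence and bear on what the deposited values count. The first is the choice of promoter of Pmp22, which is known to have a pair of start sites, the upstream one tied to myelinating Schwann cells and the next one used in many tissues. The deposited table holds a single Pmp22 row, spanning 28037 bp, which is within 1 bp of the GENCODE M21 transcript that starts 2530 bp after the upstream start, while the transcript from the upstream start spans 30565 bp. The values of Pmp22 below therefore come from a row drawn from the second start, and the transcript of the upstream start had no row of its own. Reads from exons that both transcripts hold would count in this row, so the values do not tell the starts apart. RefSeq (GRCm38.p6) holds 4 starts of Pmp22, of which the first and the next are shown here. The next one lies at 63131457, whereas the GENCODE transcript that fits the row starts at 63131512. The 250 bases before each of the RefSeq starts shown are printed to set the Schwann cell start beside the general one. Their GC content was 48.8% at the upstream start and 61.2% at the next.
Pmp22 upstream start, chr11:63128732-63128981, plus strand: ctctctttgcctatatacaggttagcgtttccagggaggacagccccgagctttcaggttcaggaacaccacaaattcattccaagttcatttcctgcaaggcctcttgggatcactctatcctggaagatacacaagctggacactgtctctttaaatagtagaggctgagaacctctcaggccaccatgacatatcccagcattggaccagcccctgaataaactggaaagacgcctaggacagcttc
Pmp22 next start, chr11:63131207-63131456, plus strand: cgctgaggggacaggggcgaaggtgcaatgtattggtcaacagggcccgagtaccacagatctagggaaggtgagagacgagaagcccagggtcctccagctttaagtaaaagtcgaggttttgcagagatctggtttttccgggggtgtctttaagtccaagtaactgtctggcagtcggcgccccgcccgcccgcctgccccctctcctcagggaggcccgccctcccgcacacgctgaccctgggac

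The second property is the presence of letters that SOX and EGR proteins are known to bind, shown because the genes of both kinds of protein are among the 8. Windows of 250 bases before a RefSeq start were on hand for 6 of the 8 genes, 15 windows in all. SOX letters (ACAAAG or ACAATG, on either strand) stood in 3 of the 15 windows, in Mag and Cnp, and in 25.2% of all 32851 windows of this length. EGR letters (GTGGGNG, on either strand) stood in 3 of the 15, in Egr2, Mag and Prx, and in 28.1% of all windows. The letters are in capitals in the windows of Mag, Cnp and Prx printed here, and no SOX match overlaps an EGR match in them. They lie 126 (SOX) and 35 (EGR) bases before the start of Mag, 167 before that of Cnp (SOX) and 107 before that of Prx (EGR), counted from the first base of the match. Of the 3 RefSeq starts of Mag, the window of the second is shown, the only one of the 3 with letters of both kinds. The window of the first start holds the same SOX match and no EGR match, and that of the third holds neither. Windows of starts that lie close together overlap, so the 15 are not separate stretches.
Mag, chr7:30914864-30915113, minus strand: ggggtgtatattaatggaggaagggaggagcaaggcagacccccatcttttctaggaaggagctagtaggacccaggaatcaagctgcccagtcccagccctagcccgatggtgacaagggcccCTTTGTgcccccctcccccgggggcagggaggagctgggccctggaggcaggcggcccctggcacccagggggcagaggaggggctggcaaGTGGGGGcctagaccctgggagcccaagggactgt
Cnp, chr11:100574689-100574938, plus strand: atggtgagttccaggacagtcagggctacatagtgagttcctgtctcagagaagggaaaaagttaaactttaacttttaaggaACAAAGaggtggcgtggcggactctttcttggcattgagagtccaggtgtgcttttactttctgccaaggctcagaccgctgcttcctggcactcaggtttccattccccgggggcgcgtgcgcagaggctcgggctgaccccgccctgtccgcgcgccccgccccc
Prx, chr7:27499074-27499323, plus strand: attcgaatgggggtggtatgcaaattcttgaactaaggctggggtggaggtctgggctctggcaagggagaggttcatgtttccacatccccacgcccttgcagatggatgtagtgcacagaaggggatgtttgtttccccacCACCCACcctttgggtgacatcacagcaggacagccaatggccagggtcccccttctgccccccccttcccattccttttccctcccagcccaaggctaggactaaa
Such short letters are common, and a match describes the window only. Neither Pmp22 window above holds any of them.

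Expression is in FPKM, fragments per kilobase of transcript and scaled to the mapped reads, so that levels of genes can be compared per length. Each gene is the sum of its transcript rows, and log2 ratios are log2((Taf7l KO + 0.1)/(WT + 0.1)), a scale that shrinks differences of low genes, while plain ratios have nothing added. The background is the 12171 genes that reached 1 FPKM in either library, whose median log2 ratio was 0.010. The depth is not listed but can be estimated from the steps between low FPKM values, which gave 78501101 mapped reads for Taf7l KO and 25895507 for WT, 3.03 times as many in Taf7l KO. Of the low values used, 82.1% of 363 in Taf7l KO and 80.6% of 423 in WT then lay within 0.05 of a whole read. The Taf7l KO estimate exceeds the read number that the labels state, and if fewer reads stood behind the values, the intervals below would be wider. Intervals given below for a ratio are exact binomial 95% intervals on the reads so estimated, and they cover counting error only. Taf7l itself stood at 0.00734 FPKM in Taf7l KO and 0.0222 FPKM in WT, about 1 read in each, which does not check the genotype labels.

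Of the 8 genes, 7 had the lower summed FPKM in Taf7l KO BAT (6 where Mbp is taken by its reads, as given below), against 49.2% of all genes compared. The 7 include Prx (ratio 0.993) and Egr2 (ratio 0.879), whose counting intervals span 1. On size, 7 were within 1.5-fold and 1, Mag, was at least 1.5-fold lower, with none 1.5-fold higher, all on the log2 scale just given. Among all genes compared, 70.8% were within 1.5-fold, 12.7% were at least 1.5-fold lower and 16.5% at least 1.5-fold higher, with no test of these shares. The median log2 ratio of the 8 was -0.18, with a range of -1.04 to 0.28. Their summed level was 81.3 FPKM in Taf7l KO and 94.7 FPKM in WT, most of it from S100b and Pmp22. Only 4 of the 8, S100b, Pmp22, Mbp and Cnp, reached 1 FPKM, and all 4 were lower in Taf7l KO in summed FPKM by less than 1.5-fold, Mbp with the reservation given with it. The genes compared all reached 1 FPKM, so their shares are a like comparison for these 4 only.

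**Figure D1:**
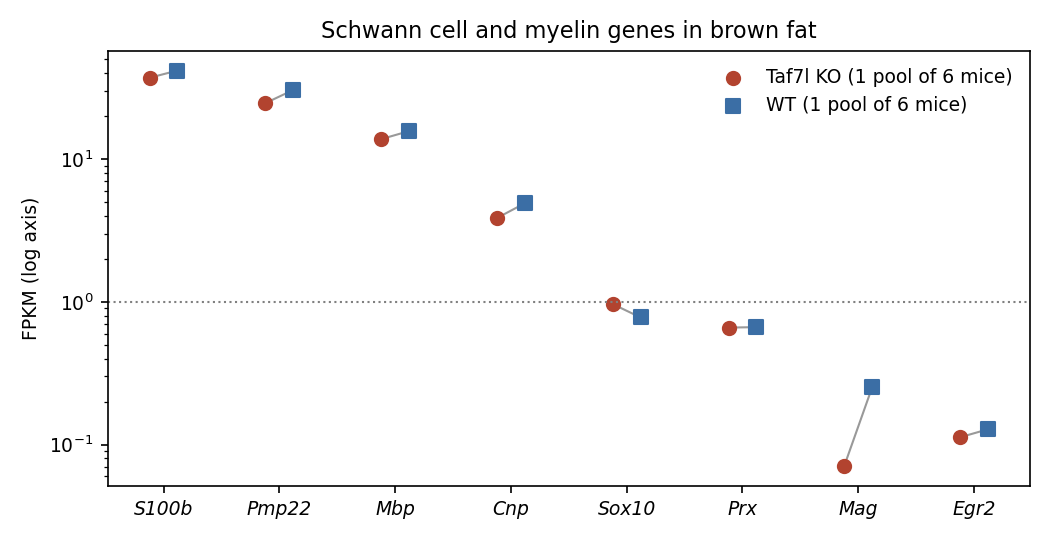
FPKM on a log axis of the 8 Schwann cell and myelin genes, with 1 point for the Taf7l KO pool (circle, left) and 1 for the WT pool (square, right), ordered by WT level, and a dotted line at 1 FPKM. S100b, Pmp22, Mbp and Cnp stand above it in both pools, and Mag shows the widest gap, with 0.0709 FPKM in Taf7l KO and 0.251 FPKM in WT.

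The compact myelin genes Pmp22 and Mbp and the myelin enzyme gene Cnp were well covered by reads. Pmp22, a membrane protein of compact peripheral myelin that fibroblasts and other cells also make, had 24.7 FPKM in Taf7l KO and 30.5 FPKM in WT, from about 3100 and 1264 reads. Its ratio was 0.809, with a counting interval of 0.758 to 0.864. The gene lies on chromosome 11 of GRCm38 from 63128982 to 63159547. Cnp, the cyclic nucleotide phosphodiesterase of non-compact myelin, which is present at lower levels in many cells, had 3.87 FPKM in Taf7l KO and 4.90 FPKM in WT. Its ratio was 0.789 (0.684 to 0.911). Its 2 rows gave 0.792 and 0.785, but reads were divided between them, so they are not separate measurements. Cnp lies on chromosome 11 from 100574904 to 100591729 and overlaps Dnajc7 of the opposite strand, with 0 exon bases shared between protein-coding transcripts.

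Mbp encodes myelin basic protein, which holds the inner faces of the myelin membrane together, and its locus also makes Golli transcripts from a start far upstream, known from the thymus and other tissues without myelin. The gene had 13.8 FPKM in Taf7l KO and 15.7 FPKM in WT over 9 rows, a log2 ratio of -0.18, and it lies on chromosome 18 of GRCm38 from 82475146 to 82585637. The rows differed in direction. The 6 rows of the classic myelin isoforms summed to 4.20 FPKM in Taf7l KO and 5.33 FPKM in WT, a ratio of 0.788 (0.678 to 0.914), and each of the 6 was lower in Taf7l KO, with log2 ratios of -0.35 to -0.25. The row of Golli-mbp isoform 2, which starts at the upstream Golli start and ends soon after the classic start, had 3.22 FPKM in Taf7l KO and 2.22 FPKM in WT, a ratio of 1.45 (1.27 to 1.67). These counting intervals do not overlap, and the difference between the rows was not tested across animals.
A short row of 445 bp held 5.80 FPKM in Taf7l KO and 7.42 FPKM in WT, which is 42.0% and 47.2% of the whole gene. It is named for Golli-mbp isoform 1 but covers only a stretch near the shared end of the gene, and its ratio of 0.782 was close to that of the classic rows. The long row of that isoform had 0.587 FPKM in Taf7l KO and 0.744 FPKM in WT, from about 106 and 44 reads. The rows share exons, and the authors ran a single iteration of the likelihood step that divides reads among them, so the division is approximate. The sum of the gene mixes a classic part that was lower and a Golli isoform 2 part that was higher. Taken by estimated reads, of which long rows give more per FPKM, the whole gene had about 1988 reads in Taf7l KO and 610 in WT, a ratio of 1.08 (0.981 to 1.18) in place of 0.879 by summed FPKM. The direction of the whole gene therefore turns with the weighting.

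**Figure D2:**
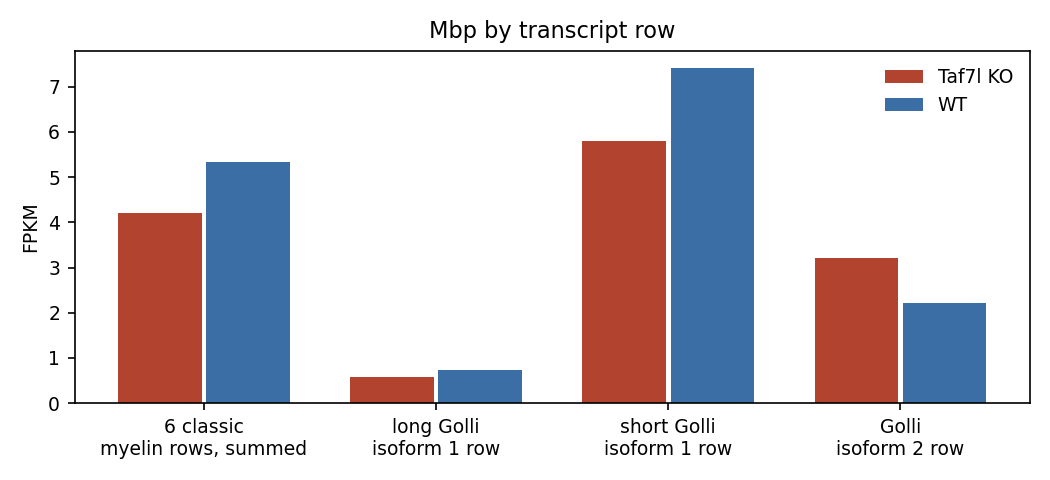
FPKM of Mbp by kind of transcript row, with Taf7l KO bars left of WT bars and 1 pool per bar. The classic, long and short rows are lower in Taf7l KO (4.20 FPKM against 5.33 FPKM in WT for the 6 classic rows), while the Golli isoform 2 row is higher (3.22 FPKM against 2.22 FPKM in WT).

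The genes of the axon-facing and outer layers of the sheath were at low levels. Mag, the adhesion molecule of the membrane next to the axon, had 0.0709 FPKM in Taf7l KO and 0.251 FPKM in WT, from about 12 and 14 reads in libraries that differ 3.03-fold in depth. Its ratio was 0.282, with a counting interval of 0.119 to 0.659. The 3 of its 4 rows that span the gene gave 0.238, 0.265 and 0.278, on about 3 to 5 reads per row and library. The remaining, shorter row gave 0.891, on about 1 read in each library. Reads were divided among rows that overlap, so the rows are not separate measurements. The gene, on chromosome 7 from 30899176 to 30914873, was lower in Taf7l KO beyond counting error, on few reads. Prx encodes periaxin, a scaffold that links the outer Schwann cell membrane to the basal lamina and that endothelial cells can also make. It had 0.660 FPKM in Taf7l KO and 0.665 FPKM in WT, a ratio of 0.993 (0.760 to 1.301), and lies on chromosome 7 from 27499324 to 27520214. The row of its short isoform S had 0.139 FPKM in Taf7l KO and 0.144 FPKM in WT, and the 3 rows of isoform L ran from 0.163 to 0.186 FPKM in Taf7l KO and from 0.169 to 0.178 FPKM in WT.

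The transcription factor genes of the lineage were low in both libraries. Sox10 had 0.964 FPKM in Taf7l KO and 0.778 FPKM in WT, a ratio of 1.24 (0.903 to 1.72), the single value above 1 among the 8 genes. Its longer row had 0.773 FPKM in Taf7l KO and 0.450 FPKM in WT, a ratio of 1.72 (1.16 to 2.67). Its shorter row had 0.191 FPKM in Taf7l KO and 0.328 FPKM in WT, a ratio of 0.582 (0.338 to 1.04). The log2 ratio of Sox10 is 0.28, 0.67 by the longer row alone and -0.17 after correction for transcript length and GC content, so its direction turns with that correction. The gene lies on chromosome 15 from 79154908 to 79165240. Egr2 had 0.113 FPKM in Taf7l KO and 0.128 FPKM in WT, from about 24 and 9 reads, with a ratio of 0.879 and an interval of 0.395 to 2.15. At this depth the interval of Egr2 spans 1, so no direction can be given. Egr2, on chromosome 10 from 67535475 to 67542188, is also an immediate early gene, induced within minutes in many stimulated cells.

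S100b encodes a calcium-binding protein used as a stain for Schwann cells, which fat cells also make. It was the highest of the 8, with 37.2 FPKM in Taf7l KO and 41.7 FPKM in WT, above 85.8% and 86.8% of the genes compared in each library. The ratio was 0.890 (0.836 to 0.947) on about 3744 and 1388 reads, and the log2 ratio of -0.17 became 0.10 after correction for length and GC content, which turns its direction. S100b lies on chromosome 10 from 76253853 to 76261159 and overlaps Dip2a of the opposite strand, with 0 shared exon bases. S100b was 38.6 times the level of Sox10 in Taf7l KO and 53.7 times in WT. Among all genes compared, 12.7% were at least 1.5-fold lower in Taf7l KO and 16.5% at least 1.5-fold higher. Of 11 brown fat cell genes measured in the same libraries, 7 were lower by that measure and 1 was higher. Their median log2 ratio was -0.88, and their summed level was 18401 FPKM in Taf7l KO and 35717 FPKM in WT. Their part in the value of S100b was not tested.

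Skeletal fibre genes, those of the contractile apparatus of muscle fibers, went the other way and by far more. Taf7l KO values were 3-fold higher or more for all 29 measured, with a median log2 ratio of 4.05 and a range of 1.84 to 5.40, against 2.05% of all genes at least 3-fold higher. Their summed level was 2480 FPKM in Taf7l KO and 204 FPKM in WT, a ratio of 12.2. That of the 8 Schwann cell and myelin genes was 0.859. Most of the sum of the 8 came from S100b and Pmp22, which other cells also make. On the log2 scale none of the 8 was 3-fold higher or 3-fold lower, against 0.403% of all genes at least 3-fold lower, although the plain ratio of Mag, 0.282, is past 3-fold. The median of the 8 minus that of the fibre genes was -4.22 on the log2 scale. The fibre list was written with earlier results known, and its direction is not independent evidence. Nerves run within muscle, and whether muscle taken along at dissection would bring enough Schwann cell RNA to be seen here was not tested. Examples of the fibre genes are Acta1, skeletal alpha-actin, with 348 FPKM in Taf7l KO and 9.92 FPKM in WT, and Tnnc2, the fast troponin C, with 248 FPKM in Taf7l KO and 7.88 FPKM in WT.

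**Figure D3:**
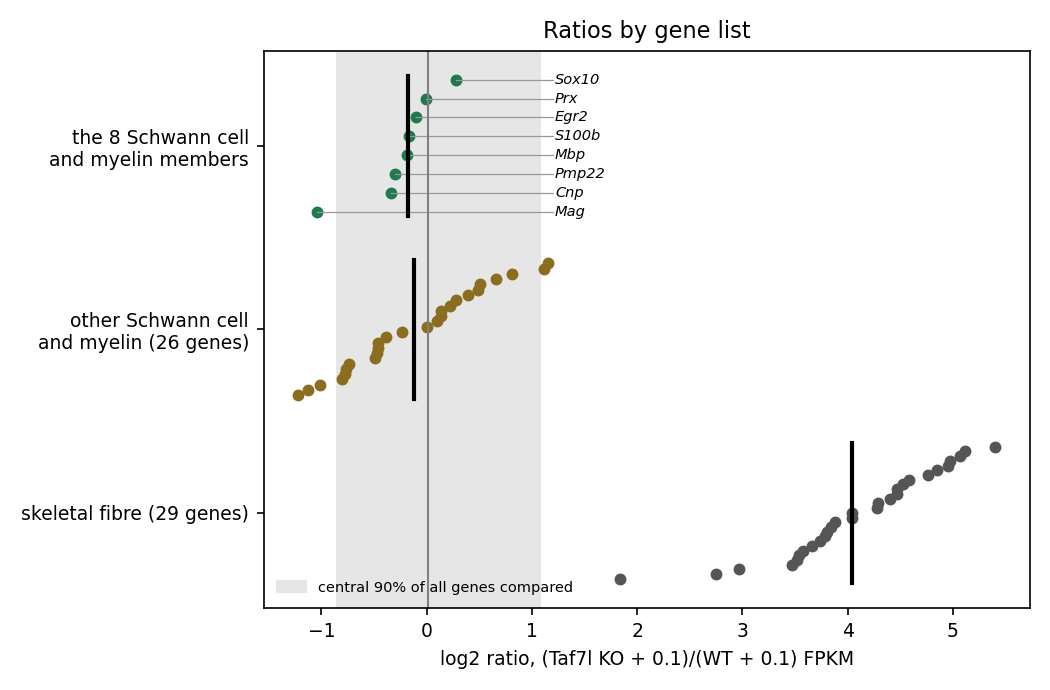
Log2 ratios of Taf7l KO over WT (0.1 FPKM added to both), 1 point per gene, for the 8 Schwann cell and myelin genes (labelled), 26 other genes of these cells and 29 skeletal fibre genes, with a black bar at each median. The fibre genes lie to the right of the gray band, the central 90% of all 12171 genes compared (-0.85 to 1.07, thin line at their median), and of the 8 only Mag lies outside it.

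The wider set of Schwann cell and myelin genes was mixed. Of the 28 listed genes that are reported, 26 were in the table, of which 7 were at least 1.5-fold lower in Taf7l KO, 4 were at least 1.5-fold higher and 15 were within 1.5-fold, beside 12.7%, 16.5% and 70.8% of all genes compared. The 7 lower are 26.9% of the 26 and the 4 higher 15.4%, with no test of either share. Their median log2 ratio was -0.12, and none was 3-fold higher or lower on that scale. Plain ratios of some genes near the floor, such as Gjb1 at 0.110, are past 3-fold. After correction for length and GC content 8 were lower and 2 higher by 1.5-fold, with a median of -0.31. Of the 26, 6 reached 1 FPKM, the level from which the background was taken, with a median of -0.35. Of these 6, 1 was at least 1.5-fold lower, 1 at least 1.5-fold higher and 4 within 1.5-fold. The shares of all genes are a like comparison for these 6 only.
Pllp, a small membrane protein of myelin, had 0.859 FPKM in Taf7l KO and 1.23 FPKM in WT, a ratio of 0.697 (0.501 to 0.977). Gjb1, the connexin of the non-compact regions of peripheral myelin, had 0.0197 FPKM in Taf7l KO and 0.179 FPKM in WT, on about 2 and 6 reads. Its ratio was 0.110, with an interval of 0.0109 to 0.615.

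Genes of other parts of the Schwann cell went both ways. Scn7a, a sodium channel of non-myelinating Schwann cells and other cells, had 1.15 FPKM in Taf7l KO and 2.42 FPKM in WT, a ratio of 0.476 (0.421 to 0.538). Matn2, a matrix protein of peripheral nerve and other tissues, had 1.98 FPKM in Taf7l KO and 2.77 FPKM in WT. Gldn (gliomedin), which gathers channels at nodes, had 1.11 FPKM in Taf7l KO and 1.33 FPKM in WT. Cadm4, an adhesion molecule of the inner Schwann cell membrane that other cells also make, was higher, with 1.43 FPKM in Taf7l KO and 0.769 FPKM in WT, and so was Plekhb1, with 3.42 FPKM in Taf7l KO and 2.79 FPKM in WT.
Of genes named after their values were seen, Ngfr, the p75 neurotrophin receptor of non-myelinating and immature Schwann cells, had 0.658 FPKM in Taf7l KO and 0.240 FPKM in WT, a ratio of 2.74 (1.74 to 4.65). Ncam1, an adhesion molecule of the same cells that muscle also makes, had 0.461 FPKM in Taf7l KO and 0.159 FPKM in WT. Its ratio was 2.90, or 3.16 by estimated reads (2.03 to 5.38). Ugt8a, the enzyme that starts the synthesis of the main myelin glycolipids, had 0.148 FPKM in Taf7l KO and 0.444 FPKM in WT. Its ratio was 0.335, or 0.316 by estimated reads (0.197 to 0.499). The part of muscle in the values of Ncam1 was not tested.

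**Figure D4:**
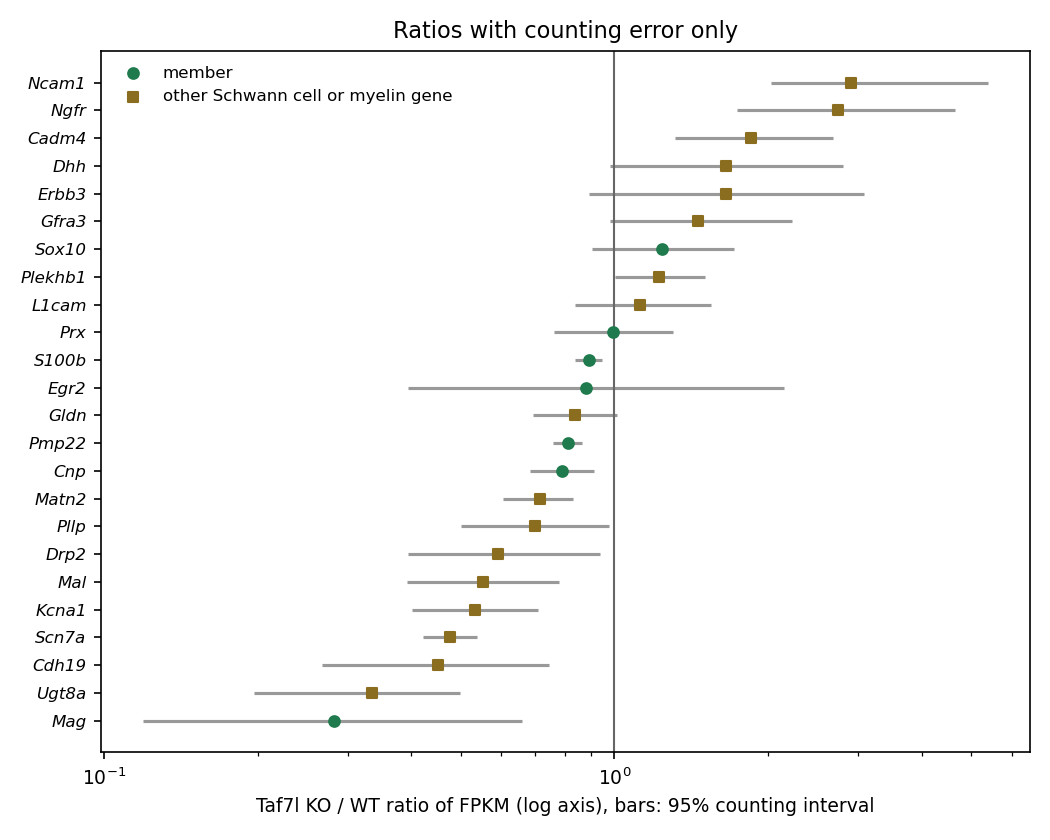
Taf7l KO over WT ratios of FPKM on a log axis for 7 of the 8 Schwann cell and myelin genes (circles) and for 17 other genes of these cells with at least 10 estimated reads in each library (squares), leaving out Mbp, Cldn19 and Col28a1, whose ratio of reads is over 10% apart from that of FPKM. Bars are exact binomial 95% intervals of counting error only. Some lie wholly below a ratio of 1 and others wholly above it, and the share of such intervals over all genes was not computed.

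Other cells that could lend these genes were checked by their own markers. A value of 0 in this table need not mean absence, since Hmgcs1, an enzyme gene of cholesterol synthesis that every cell uses, is listed at 0 in both libraries over its 6 rows. Of 6 oligodendrocyte genes in the table, which include Mag, the summed level was 0.312 FPKM in Taf7l KO and 0.421 FPKM in WT. The defining genes Olig2 and Nkx2-2 were listed at 0 in both libraries, Mog had 0.00882 FPKM in Taf7l KO and 0.0267 FPKM in WT, and Mobp had 0.00626 FPKM in Taf7l KO and 0.00632 FPKM in WT. Olig1, a transcription factor gene of these cells, had 0.226 FPKM in Taf7l KO and 0.137 FPKM in WT, about 35 and 7 reads, a ratio of 1.65 (0.722 to 4.40), and was above Mag in Taf7l KO. Melanocytes also make SOX10, and 6 of 7 of their genes were in the table, Sox10 included, with a summed level of 2.23 FPKM in Taf7l KO and 1.94 FPKM in WT. The defining genes Dct (0.0201 FPKM in Taf7l KO and 0.0609 FPKM in WT) and Tyr (0.119 FPKM in Taf7l KO and 0.157 FPKM in WT) were at low values, Tyr on about 55 and 24 reads, while Tyrp1 was listed at 0 in both. Mlana had 0.0989 FPKM in Taf7l KO, about 5 reads, and was listed at 0 in WT, and Mitf, which other cells also make, had 1.032 FPKM in Taf7l KO and 0.943 FPKM in WT. The part of these cells in the values of Mag and Sox10 was not tested.
Nerve cell bodies lie outside the fat pad, and the values of their genes were low. Only 1 of the 16 neuron and axon genes in the table reached 1 FPKM. The shares of all genes compared, 16.5% at least 1.5-fold higher in Taf7l KO and 12.7% at least 1.5-fold lower, are therefore not a like comparison. Of the 16, 10 were under 0.1 FPKM in both libraries, 1 was higher by that measure and 1 lower. Their summed level was 2.23 FPKM in Taf7l KO and 2.11 FPKM in WT, most of it from Stmn2, with 1.25 FPKM in Taf7l KO and 1.09 FPKM in WT.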

How the data were processed

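RNA of interscapular BAT from 6 Taf7l KO and 6 WT mice was pooled by genotype, and each pool gave 1 library of 50 bp single-end reads. The authors mapped the reads with TopHat 1.4.0, made FPKM with cufflinks 1.3.0 with max-mle-iterations set to 1, and deposited 1 FPKM value per UCSC transcript (55350 rows) and library. The notes name mm10, yet a start within 1000 bp of the GRCm38 one was found for 314 of 7058 single-row genes. Positions given here are therefore of GENCODE M21, on GRCm38.

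FPKM were summed per gene name with a pseudocount of 0.1 FPKM. The 8 genes and the listed genes were counted whatever their level, and the background took genes from 1 FPKM in at least 1 library. The members and lists were chosen with earlier results of these data known. Some genes of the wider Schwann cell and myelin list are not reported here and were left out of its counts, medians and plots after values were seen, so these describe the remaining genes and not the list as first written. Named genes are the 8, the listed Schwann cell and myelin genes at 1 FPKM or more and some markers whatever their value. Examples from the top of other lists are also named. Ngfr, Ncam1 and Ugt8a are marked as named after their values were seen, and Olig2, Nkx2-2, Tyrp1, Mlana and Hmgcs1 also fall outside this rule. The genotypes were not compared by any statistical test, as each has 1 library. Reads were estimated as FPKM times effective transcript length (fragments of 200 bp, SD 80 bp) times depth. Row lengths come from GENCODE M21 transcripts whose span is within 30 bp, or else from the nearest in span or the longest. Upstream sequences are from RefSeq (GRCm38.p6). The script that computes ratios was checked on simulated reads with known folds. Alternatives covered the pseudocount, filter, scaling, rows, members, and length and GC content. Scripts ran under Python 3.11.15 with numpy 2.4.6 and pandas 2.3.3, intervals came from scipy 1.17.1, and plots from matplotlib 3.10.9.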

Additional observations from a re-analysis of the deposited data

How the results depend on the processing

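No paired analysis was possible because each genotype has a single library. With a pseudocount of 1 FPKM the median log2 ratio of the skeletal fibre genes was 3.16 and the median of the 8 genes minus it was -3.33. The count of the 8 at least 1.5-fold lower, 1 as reported, was 0 with that pseudocount and, since Mag is then left out, 0 with a filter at 3 FPKM and 0 with a filter at 1 FPKM applied to the 8 as well, an alternative chosen after seeing the data. The count at least 1.5-fold higher was 1, Sox10, when each gene was taken by its highest row only. With a filter at 3 FPKM a single gene, Plekhb1, remained of the wider Schwann cell and myelin list, at 0.28, against a median of -0.35 for the 6 genes at 1 FPKM or more. With each of the 8 left out in turn their median lay between -0.18 and -0.17. It was -0.24 with Mbp taken by its classic rows and -0.13 with Mbp taken by the ratio of its estimated reads (log2 0.10, against -0.18 as reported), both chosen after seeing the data, and -0.28 after correction for transcript length and GC content, which could be made for all 8 genes and for 8372 of the 12171 genes compared. Under that correction the log2 ratios of Cnp, Prx and Pmp22 were -0.55, -0.47 and -0.12. Scaling to the median ratio or to the upper quartile left the median of the 8 between -0.20 and -0.19. The reads behind Mag, Egr2 and Gjb1 are few, and the spread between mice is unknown for every gene.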

Other observations

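Some gene groups near to Schwann cells and myelin, from lists written with earlier results known, are given as values. Myelin is rich in cholesterol, and of 11 genes of cholesterol synthesis with values (Hmgcs1 is listed at 0 in both libraries) none was at least 1.5-fold higher in Taf7l KO and 4 were at least 1.5-fold lower, beside 16.5% and 12.7% of all genes compared. Their median log2 ratio was -0.37. The highest of them, Insig1, which restrains this synthesis, had 43.5 FPKM in Taf7l KO and 69.0 FPKM in WT. Fat cells make cholesterol too, so these values are not particular to Schwann cells.

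Of 12 immediate early genes, the kind to which Egr2 belongs, 3 were higher by 1.5-fold or more in Taf7l KO and 2 lower, with a median of -0.034. Among all genes compared, 16.5% were higher and 12.7% lower by that much. Only 8 of the 12 reached 1 FPKM as those genes did. Nr4a1, a nuclear receptor gene of this kind, had 53.2 FPKM in Taf7l KO and 25.0 FPKM in WT, and Dusp1, a phosphatase gene, 5.66 FPKM in Taf7l KO and 10.5 FPKM in WT. Of 8 endothelial genes, all were within 1.5-fold, beside 70.8% of all genes compared, with a median of 0.16. In Taf7l KO, 3 of 7 macrophage genes were 1.5-fold higher or more, beside 16.5% of all genes compared. The other 4 had lower values within 1.5-fold, and the median of the 7 was -0.019. Of 8 fibroblast genes, 2 were higher and 2 lower by that measure, beside 16.5% and 12.7% of all genes compared, with a median of 0.26.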
